A study of Danio rerio with 8 samples.

Results

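The genes described here are the aminoacyl-tRNA synthetases of zebrafish eosinophils. They were taken from both deposited expression tables by symbol, a 1-letter amino acid code followed by *ars* with an optional subunit letter or 2, plus *ears2* and the *eprs* genes. The rule found 34 of the 30838 genes listed in both tables. A symbol that ends in 2 marks a mitochondrial enzyme, and the others were taken as cytosolic, which gave 20 cytosolic genes (*aars*, *cars*, *dars*, *eprs*, *farsa*, *farsb*, *gars*, *hars*, *iars*, *kars*, *larsb*, *mars*, *nars*, *qars*, *rars*, *sars*, *tars*, *vars*, *wars* and *yars*) and 14 mitochondrial genes (among them *aars2*, *cars2*, *fars2*, *iars2*, *lars2*, *mars2*, *nars2*, *rars2*, *sars2*, *tars2*, *vars2*, *wars2* and *yars2*). *Ears2* and *hars2* were not analysed here.

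The cells came from AB-strain larvae at 7 days post-fertilization that carried *Tg(eslec:eGFP)*, a reporter in which the promoter of an eosinophil lectin gene drives GFP. In each of 8 libraries about 500 GFP-positive cells sorted from a pool of whole larvae were profiled by a modified Smart-seq2 protocol. Each of the 4 groups, *cebp1*+/+, *cebp1*-/- (allele smu1), *cebpb*+/+ and *cebpb*-/- (allele szy7), had 2 libraries, each from a different pool of larvae, and all groups carried the reporter. Each mutant was compared with its own wild type, to ask how loss of Cebp1 and loss of Cebpb, both transcription factors of the C/EBP family, alters the eosinophil transcriptome.

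Aminoacyl-tRNA synthetases join each amino acid to its tRNAs, the first step of protein synthesis. In animals the cytosol and the mitochondria use largely separate enzymes, both encoded in the nucleus. In humans GARS and KARS are exceptions, each of which makes both forms from a single gene. The cytosolic enzymes fall into 2 structural classes, and 8 of these genes (*dars*, *eprs*, *iars*, *kars*, *larsb*, *mars*, *qars* and *rars*) encode enzymes that, in mammals, sit in a multisynthetase complex with scaffold proteins. In mammals many cytosolic synthetase genes are known targets of Atf4, the transcription factor of the amino acid and integrated stress responses.

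Expression was given as TPM, a measure of transcript abundance corrected for gene length and for the total of each library, so levels of different genes can be compared within a library. Between libraries they were used on a pair of scales, as deposited and after scaling by the median of ratios, which sets a typical gene to the same level in every library. The choice matters here. Scaling raised every *cebp1*-/- over *cebp1*+/+ log2 fold change by 1.07 relative to the deposited values and lowered every *cebpb*-/- over *cebpb*+/+ log2 fold change by 0.55, before the pseudocount. The median listed gene stood at 6.95 and 5.43 TPM in the *cebp1*+/+ libraries and at 2.19 and 2.70 TPM in the *cebp1*-/- libraries. In the *cebpb* table it was 0 in 3 libraries and 0.0215 TPM in the other. Differences were tested on the scaled values with limma, on log2(scaled TPM + 1), and p-values were adjusted over all genes that averaged 1 scaled TPM or more. The number of reads behind a TPM is unknown, so a listed 0 is given without a limit of detection.

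*Cebp1* itself was listed at 0 TPM in all 8 libraries, so its row gives no check of the *cebp1* labels. *Cebpb* stood at 6360 and 5716 TPM in *cebpb*+/+ against 2928 and 1480 TPM in *cebpb*-/-. The 7 eosinophil markers were expressed in every library, and their level moved with genotype. Their median was 243 and 266 TPM in *cebp1*+/+ against 702 and 518 TPM in *cebp1*-/-, where 6 of the 7 rose, the same direction as the synthetase genes that rose. Of all genes tested 1.28% rose, and of those that averaged 50 scaled TPM or more 23.2%. On the deposited scale none of the 7 markers passed (limma adjusted p = 0.0573 to 0.202). The marker median was 2713 and 2581 TPM in *cebpb*+/+ against 1396 and 2142 TPM in *cebpb*-/-. There all 7 had scaled log2 fold changes below 0 and none passed the limma test (0 higher and 5 lower at an unadjusted p under 0.05, beside 6.13% and 8.05% of all genes). The neutrophil marker *lyz* was at most 1.47 TPM and the macrophage marker *mpeg1.1* was at 0 in all 8 libraries, but other markers of both types were present. Over 4 macrophage markers the sum was 171 and 121 TPM in *cebpb*+/+ against 202 and 7.31 TPM in *cebpb*-/-. In *cebp1*-/- that macrophage sum was 11.5 and 10.1 TPM, below both *cebp1*+/+ libraries. Over 5 neutrophil markers the sum was 58.3 and 115 TPM in *cebpb*+/+ against 60.4 and 57.5 TPM in *cebpb*-/-. None of these macrophage markers passed in either table. The summed TPM of 5 keratinocyte markers was 759 and 1681 in *cebp1*+/+ against 199 and 322 in *cebp1*-/-, where 1 of them, *krt91*, fell. The same sum was 517 and 701 in *cebpb*+/+ against 1925 and 2898 in *cebpb*-/-, with none of the 5 past the test and with *krt5* at 0 in both *cebpb*+/+ libraries. The summed TPM of 3 liver markers was 337 and 189 in *cebp1*+/+ against 74.9 and 97.8 in *cebp1*-/-, and that of 5 neutrophil markers was 99.7 and 78.8 against 12.2 and 32.5. Of these, *fabp10a* and *cfl1l* fell. The sum of 3 neuron markers was 135 and 117 in *cebp1*+/+ against 93.9 and 79.3 in *cebp1*-/-. The sum of 4 skeletal muscle markers was 33.8 and 102 against 580 and 9.54, so its mutant libraries lay on either side of the wild-type ones. No neuron or muscle marker passed. The part of any of these markers in the synthetase values was not tested. In bulk libraries such as these, fewer cells of a type and less RNA per cell cannot be told apart.

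By their medians, cytosolic synthetase genes were expressed at higher levels than mitochondrial ones in every library. The median of the 20 cytosolic genes lay between 16.3 and 26.1 TPM in the *cebp1* table and between 18.5 and 33.5 TPM in the *cebpb* table. The median of the 14 mitochondrial genes lay between 4.25 and 13.9 TPM in the first table and between 0.0377 and 0.143 TPM in the second. Levels of the tables were not compared by a test, since each was normalized on its own.

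The most abundant members were *dars*, *gars*, *nars* and *kars*, which encode the aspartyl-, glycyl-, asparaginyl- and lysyl-tRNA synthetases. All of them had a mean above 50 TPM in both tables, and each exceeded at least 91.3% of listed genes in every library. *Sars*, the seryl enzyme, was next in the *cebp1* table, and *hars*, the histidyl enzyme, in the *cebpb* table, where *sars* nearly matched it at means of 50.1 TPM each. At the low end, *tars* and *yars*, the threonyl and tyrosyl enzymes, did not exceed 4.26 and 0.331 TPM in any library. *Mars2* was listed at 0 in all 8 libraries and *fars2* in all 4 libraries of the *cebpb* table. In the plot of levels by library the cytosolic genes spread over most of the axis in both tables.

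**Figure D1:**
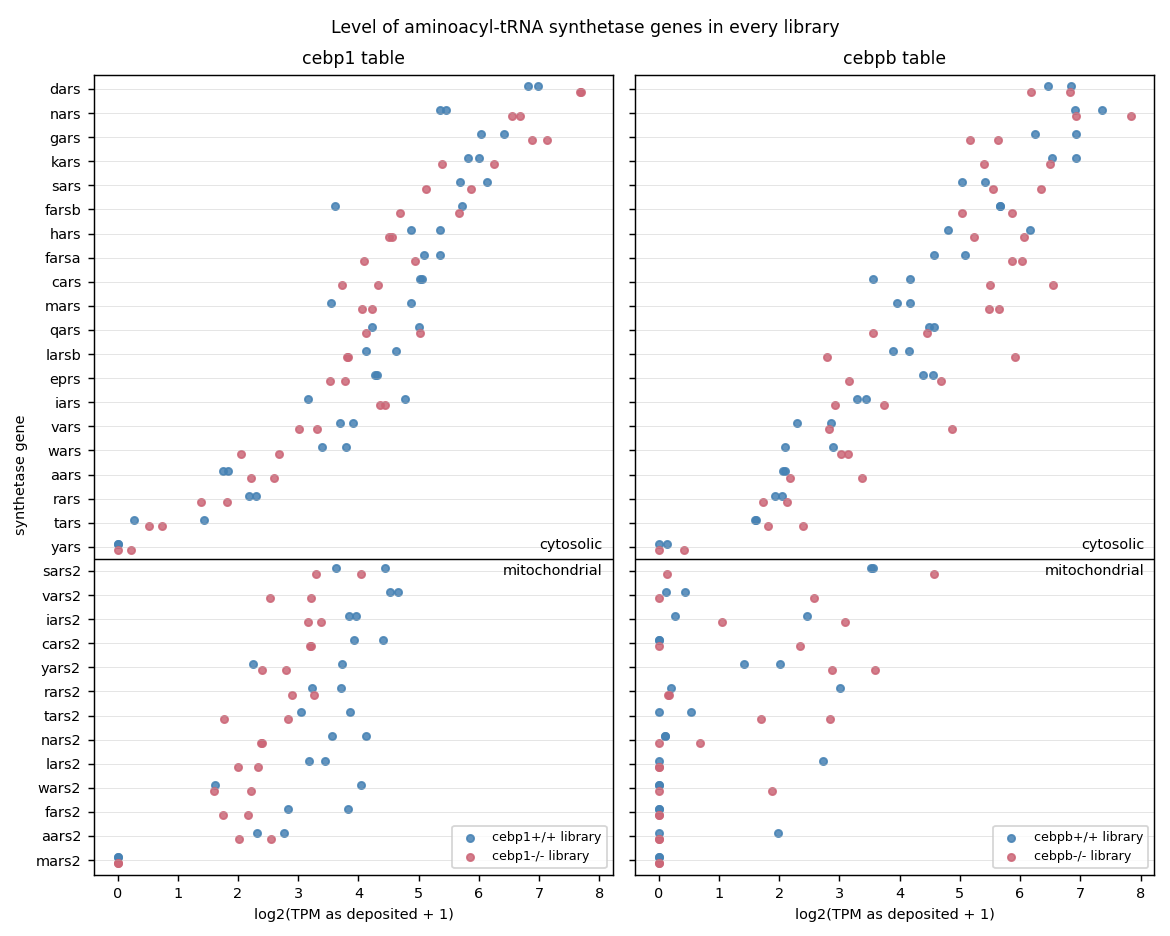
Level of the synthetase genes in every library, as log2(TPM as deposited + 1), with 1 panel per table, blue points for wild-type and red points for mutant libraries (2 per group), cytosolic genes above the line and mitochondrial genes below it. *Dars*, *nars* and *gars* have both red points above both blue points in the *cebp1* table, an order found for 5.11% of all genes tested. *Fars2* and *mars2* are at 0 in all 4 libraries of the *cebpb* table.

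In *cebp1*-/- eosinophils 3 cytosolic synthetase genes rose, *nars*, *dars* and *gars*, and no member fell. They were among the most abundant members, their scaled log2 fold changes lay between 1.84 and 2.27, and none of the 13 mitochondrial genes tested passed. Of 34 members, 31 reached the minimum level in this table, 18 cytosolic and 13 mitochondrial, and *tars*, *yars* and *mars2* did not. The 3 calls are read against a background of 1.28% of 25203 genes that rose and 0.127% that fell. Among the 1045 genes that averaged 50 scaled TPM or more, a range that holds 5 members, 23.2% rose. By the unadjusted p of the same limma fit, 7 members, all cytosolic, were higher at under 0.05 and none lower, beside 9.7% and 4.91% of all genes tested.

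*Nars* was at 42.8 and 40.0 TPM in *cebp1*+/+ against 102 and 93.0 TPM in *cebp1*-/-. Its scaled log2 fold change was 2.27 (SE 0.33, n = 2 against 2, limma adjusted p = 0.0308). *Dars* was at 125 and 111 TPM in *cebp1*+/+ against 205 and 206 TPM in *cebp1*-/-, the closest agreement between mutant libraries of the 3 genes. Its scaled log2 fold change was 1.86 (SE 0.28, limma adjusted p = 0.0348). *Gars*, whose promoter carries a Cebp1 binding peak in the study's chromatin data from whole larvae with a heat-shock-driven Cebp1-eGFP fusion, was at 84.6 and 64.6 TPM in *cebp1*+/+ against 140 and 117 TPM in *cebp1*-/-. Its scaled log2 fold change was 1.84 (SE 0.32, limma adjusted p = 0.0432). For each of the 3 genes both mutant libraries also exceeded both wild-type libraries as deposited, an order found for 5.11% of all genes tested. *Aars*, which did not pass, had this order too. It is a description only, since the 3 genes were picked for having risen in the same libraries.

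On the deposited scale the same differences were smaller and none passed, with log2 fold changes of 1.22 for *nars* (limma adjusted p = 0.0796), 0.80 for *dars* (adjusted p = 0.0970) and 0.78 for *gars* (adjusted p = 0.122). On that scale 0.0627% of genes rose, and the calls over the whole table numbered 16 higher and 29 lower, against 323 and 32 on the scaled values. The calls were also lost when any 1 of the 4 libraries was left out, where no gene of the whole table passed.

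The make-up of the cytosolic total does not depend on scaling between libraries. It is given here as a description, since the 3 genes summed were picked for having risen in the same libraries. *Gars*, *nars* and *dars* together made up 37.6% and 38.2% of the summed TPM of the 20 cytosolic synthetase genes in *cebp1*+/+ and 60.1% and 56.9% in *cebp1*-/-. The share of *dars* was 18.6% and 19.7% against 27.5% and 28.2%, and that of *nars* was 6.37% and 7.09% against 13.7% and 12.7%. The cytosolic sum itself was 672 and 565 TPM in *cebp1*+/+ against 745 and 732 TPM in *cebp1*-/-.

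**Figure D2:**
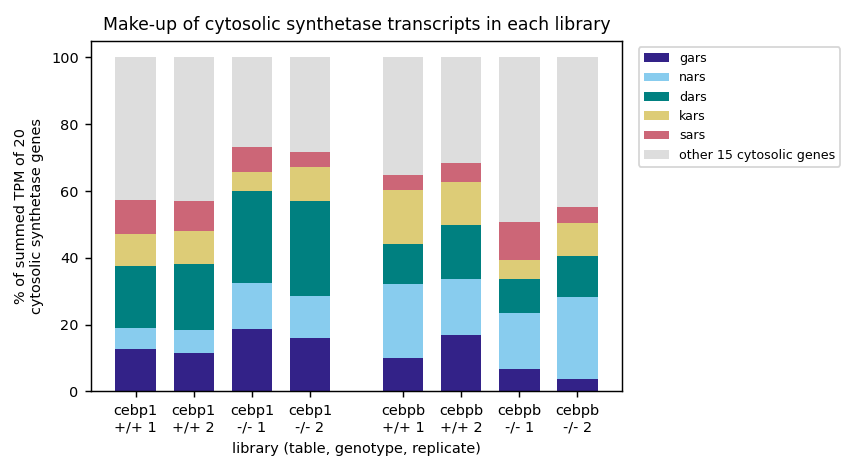
Make-up of cytosolic synthetase transcripts in each of the 8 libraries, as the percent of the summed TPM of the 20 genes taken by *gars*, *nars*, *dars*, *kars*, *sars* and the other 15 genes. The lower 3 segments reach 37.6% and 38.2% in *cebp1*+/+ against 60.1% and 56.9% in *cebp1*-/-, and 44.0% and 49.8% in *cebpb*+/+ against 33.6% and 40.7% in *cebpb*-/-.

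The other abundant cytosolic genes did not pass. *Kars* was at 63.2 and 55.5 TPM in *cebp1*+/+ against 41.0 and 75.1 TPM in *cebp1*-/-, with a scaled log2 fold change of 0.96 (SE 0.36, limma adjusted p = 0.275). Its mutant libraries lay on either side of the wild-type ones as deposited. *Sars* was at 69.1 and 50.5 TPM against 57.7 and 33.7 TPM, with a scaled log2 fold change of 0.64 (SE 0.40, adjusted p = 0.517). The phenylalanyl enzyme is built from an alpha subunit encoded by *farsa* and a beta subunit encoded by *farsb*. The ratio of *farsa* to *farsb* TPM ran from 0.322 to 3.55 within this table, with no separation by genotype, and *farsb* alone was at 51.6 and 11.2 TPM in the *cebp1*+/+ libraries.

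Of the cytosolic members, 5 (*gars*, *kars*, *iars*, *vars* and *cars*) have a Cebp1 promoter peak listed by the study, and only *gars* of these rose. Of all genes tested 1.28% rose, and of those that averaged 50 scaled TPM or more 23.2%. The share of all genes with such a peak was not computed, so these counts are a description only. *Iars*, the isoleucyl enzyme, was at 7.99 and 26.4 TPM in *cebp1*+/+ against 20.7 and 19.5 TPM in *cebp1*-/-, with a scaled log2 fold change of 1.42 (SE 0.60, limma adjusted p = 0.338). *Vars*, the valyl enzyme, was at 14.0 and 12.0 TPM against 8.94 and 7.07 TPM, with a scaled log2 fold change of 0.34 (SE 0.42, adjusted p = 0.760). *Cars*, the cysteinyl enzyme, was at 32.3 and 31.6 TPM against 12.3 and 19.1 TPM, with a scaled log2 fold change of 0.01 (SE 0.38, adjusted p = 0.993). As deposited, *vars* and *cars* were lower in both mutant libraries than in both wild-type ones, the opposite order to *gars*. On that scale 61% of all genes tested were lower in both mutant libraries and 5.11% higher. The median scaled log2 fold change of the 5 genes was 0.96, and -0.09 as deposited.

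Across the 18 cytosolic genes tested the median scaled log2 fold change was 0.79, with 17 above 0, but it was -0.25 as deposited, with 6 above 0. Over all genes tested the median was -0.06 scaled and -0.90 as deposited, and over genes that averaged 50 scaled TPM or more it was 1.15 and 0.09. By these medians the cytosolic synthetases lay above the typical gene and below the typical abundant gene on both scales. Only 5 members averaged 50 scaled TPM or more, and no set of genes matched to the 18 by level was compared. Other translation genes had medians of 1.08 scaled and 0.01 as deposited (cytosolic ribosomal protein genes, 21 of 79 rose) and of 0.89 and 0.02 (initiation and elongation factor genes, 13 of 75 rose). Of all genes tested 1.28% rose, and of those that averaged 50 scaled TPM or more 23.2% rose. Both mutant libraries exceeded both wild-type libraries, on the scaled values, for 14 of the 18 cytosolic genes, against 23.1% of all genes tested. As deposited, 4 were higher and 8 lower in both mutant libraries, against 5.11% and 61% of the same genes.

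All 3 genes that rose encode class II enzymes. So do all 5 members that averaged 50 scaled TPM or more in this table, *dars*, *gars*, *nars*, *kars* and *sars*. In that range 23.2% of all genes rose, against 1.28% of all genes tested, so class and level cannot be told apart in these calls. The 9 class II genes tested had a median scaled log2 fold change of 1.41, and 0.52 as deposited. The 9 class I genes tested had medians of 0.36 and -0.64, and none of them passed. *Eprs*, whose glutamyl part is class I and prolyl part class II, was counted as class I, and the scaled median is its own value. The class II genes were also the more abundant ones, with a median of 31.8 to 47.2 TPM per library against 11.4 to 15.9 TPM for class I. Of the 8 genes of the multisynthetase complex only *dars* rose, and *nars* and *gars* encode enzymes outside it. The median scaled log2 fold change of the 8 was 0.95, and -0.08 as deposited.

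**Figure D3:**
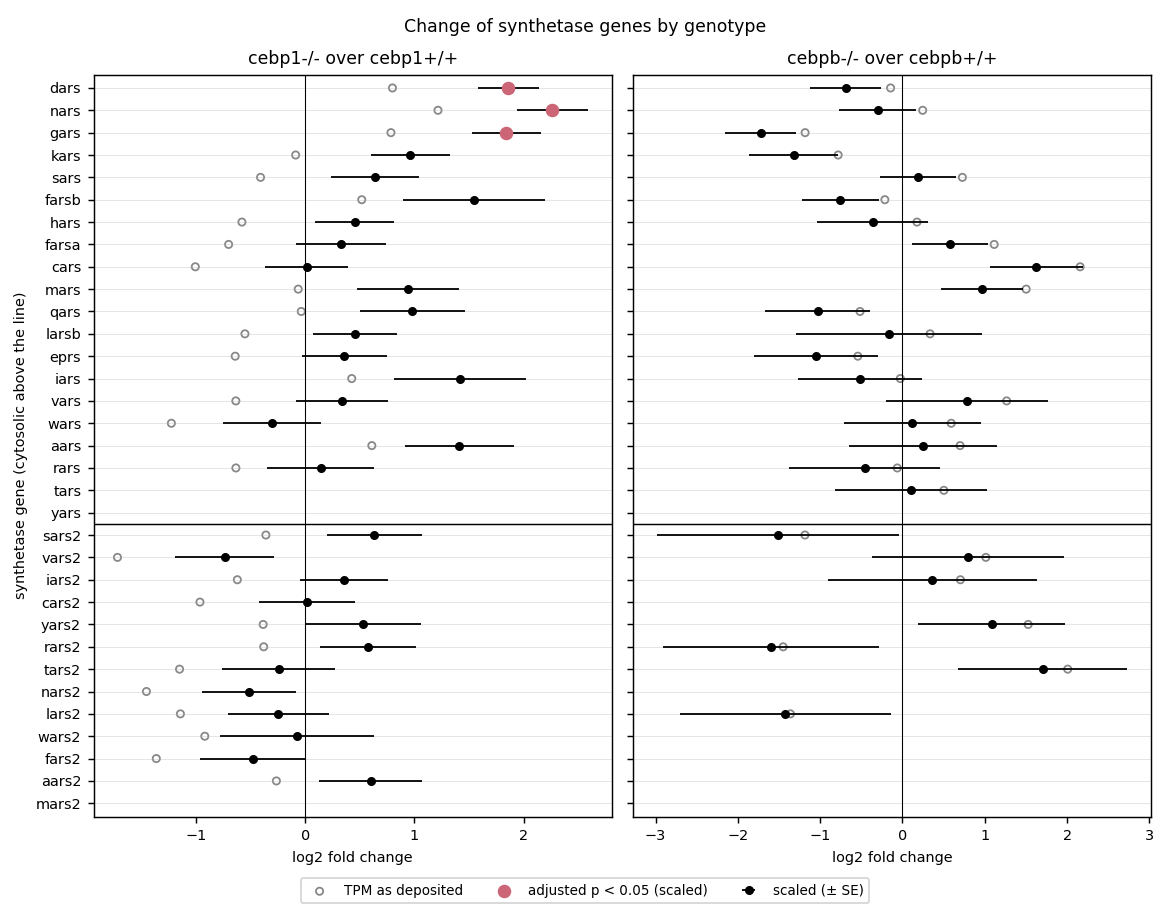
Log2 fold change of the synthetase genes that reached the minimum level, mutant over wild type, in each table (n = 2 libraries against 2), filled points with bars for the scaled value ± SE, open points for TPM as deposited, and red for adjusted p under 0.05. *Nars*, *dars* and *gars* are the red points in the *cebp1* panel, and the open points of the mitochondrial genes shown there lie below 0.

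The summed TPM of the mitochondrial genes was 188 and 127 in *cebp1*+/+ against 68.1 and 86.5 in *cebp1*-/-, so the ratio of the cytosolic to the mitochondrial sum was 3.58 and 4.46 against 10.9 and 8.46. The median mitochondrial gene stood at 2.0 and 1.44 times the median of all listed genes in *cebp1*+/+ and at 1.94 and 2.0 times in *cebp1*-/-. The median log2 fold change of the 13 genes tested was 0.02 scaled, with 7 above 0, and -0.92 as deposited, with 0 above 0, beside -0.06 and -0.90 over all genes. None passed the limma test, adjusted or at an unadjusted p under 0.05.

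*Vars2*, the mitochondrial member with the highest mean TPM as deposited, was at 24.2 and 22.1 TPM in *cebp1*+/+ against 8.24 and 4.78 TPM in *cebp1*-/-, with a scaled log2 fold change of -0.74 (SE 0.46, limma adjusted p = 0.505). *Sars2* was at 20.6 and 11.3 TPM against 8.80 and 15.4 TPM, with a scaled log2 fold change of 0.63 (SE 0.44, adjusted p = 0.554). *Cars2* was at 14.3 and 20.3 TPM against 8.14 and 8.31 TPM, with a scaled log2 fold change of 0.02 (SE 0.44, adjusted p = 0.991). Of these, *vars2* and *cars2* had both mutant libraries below both wild-type libraries as deposited, and the *sars2* groups overlapped. *Nars2*, at 16.5 and 10.8 TPM against 4.21 and 4.25 TPM, had a scaled log2 fold change of -0.52 (SE 0.43, adjusted p = 0.632), opposite in sign to that of its cytosolic counterpart *nars*. *Fars2*, at 13.2 and 6.07 TPM against 2.36 and 3.49 TPM, had a scaled log2 fold change of -0.48 (SE 0.49, adjusted p = 0.698). On the scaled values 4 of the 13 mitochondrial genes were higher in both mutant libraries and 2 lower, against 23.1% and 23.3% of all genes tested. As deposited 0 were higher and 7 lower, against 5.11% and 61%.

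**Figure D4:**
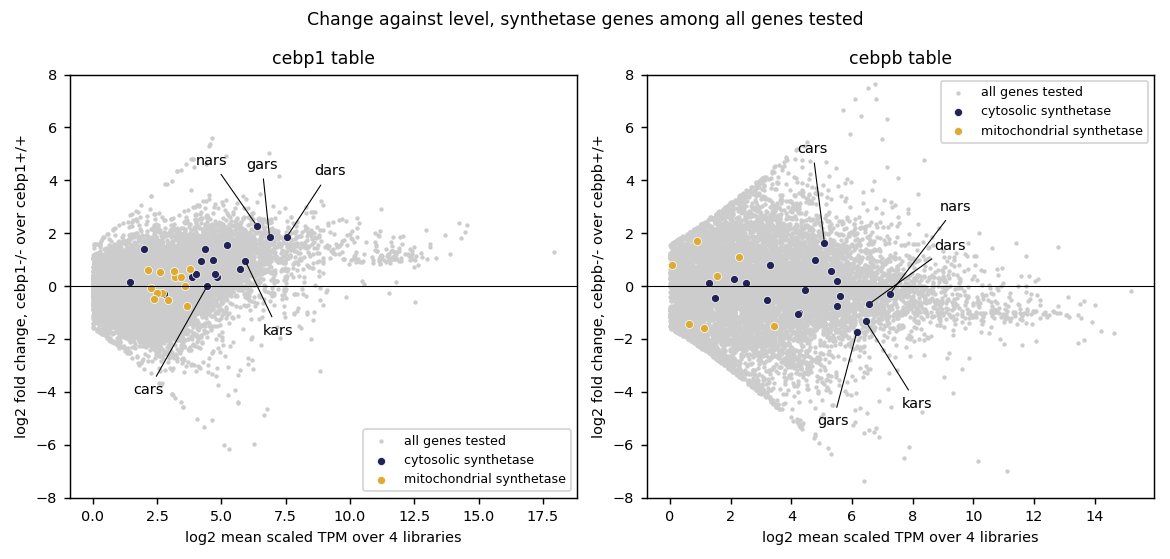
Log2 fold change, mutant over wild type, against log2 mean scaled TPM over the 4 libraries of a table, for all genes tested (grey, 25203 on the left for *cebp1* and 11478 on the right for *cebpb*), cytosolic synthetases (dark) and mitochondrial synthetases (yellow). In the *cebp1* table the abundant genes sit above 0, with a median of 1.15 at a mean of 50 or more, and *nars*, *gars* and *dars* lie among them.

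In *cebpb*-/- eosinophils no synthetase gene passed, as no gene of the table did (0% of 11478, limma). Of the 26 members tested, 19 cytosolic and 7 mitochondrial, *gars* was lower and *cars* higher at an unadjusted p under 0.05, where 8.05% of all genes were lower and 6.13% higher. The median residual SD of a gene within groups was 0.86 on the log2 scale in this table against 0.45 in the *cebp1* table. The 8 members that did not reach the minimum level were *yars* and 7 mitochondrial genes.

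*Gars* was at 75 and 120 TPM in *cebpb*+/+ against 48.7 and 34.9 TPM in *cebpb*-/-. Its groups did not overlap, and its scaled log2 fold change was -1.72 (SE 0.43, limma adjusted p = 0.210), with -1.18 as deposited. It passed, alone among the members, only in a fit that shared the spread of all 8 libraries, where 3.68% of genes fell. *Cars* was at 10.8 and 17.0 TPM in *cebpb*+/+ against 92.8 and 44.1 TPM in *cebpb*-/-, also without overlap. Its scaled log2 fold change was 1.63 (SE 0.57, limma adjusted p = 0.307), with 2.16 as deposited. Of all genes tested, 15.4% were lower and 30.9% higher in both mutant libraries as deposited, and 23.6% and 21.1% on the scaled values. *Gars* and *cars* both have a Cebp1 promoter peak. Peaks of Cebpb, which the study also mapped, are not reported here. The remaining 3 with a Cebp1 peak were *kars* (below), *vars*, at 6.28 and 3.89 TPM against 6.06 and 28.1 TPM, and *iars*, at 9.83 and 8.77 TPM against 6.61 and 12.4 TPM. The *vars* and *iars* groups overlapped as deposited, with scaled log2 fold changes of 0.78 (SE 0.99, adjusted p = 0.715) and -0.52 (SE 0.75, adjusted p = 0.758).

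*Nars* and *dars*, which had risen in *cebp1*-/-, overlapped between *cebpb* genotypes as deposited, and after scaling only *dars* was lower in both mutant libraries. *Nars* was at 164 and 120 TPM in *cebpb*+/+ against 121 and 228 TPM in *cebpb*-/-, with a scaled log2 fold change of -0.30 (SE 0.47, limma adjusted p = 0.776). *Dars* was at 87.1 and 114 TPM against 71.6 and 113 TPM, with a scaled log2 fold change of -0.69 (SE 0.43, adjusted p = 0.541). *Kars* was at 121 and 91.2 TPM against 41.3 and 89.3 TPM, lower in both mutant libraries though by little in 1 of them, with a scaled log2 fold change of -1.32 (SE 0.54, adjusted p = 0.361).

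*Mars*, the methionyl enzyme, was at 17.0 and 14.6 TPM in *cebpb*+/+ against 49.2 and 44.0 TPM in *cebpb*-/-. Its libraries agreed closely within each genotype, and the scaled log2 fold change was 0.97 (SE 0.50, limma adjusted p = 0.460), with 1.5 as deposited. *Hars* was at 70.6 and 26.9 TPM against 36.8 and 66.3 TPM, with a scaled log2 fold change of -0.36 (SE 0.68, adjusted p = 0.819). *Farsb* was at 49.8 and 50.1 TPM against 57.5 and 32.0 TPM, and its scaled log2 fold change was -0.75 (SE 0.46, adjusted p = 0.539). Both genes overlapped between genotypes as deposited. The ratio of *farsa* to *farsb* TPM was 0.459 and 0.661 in *cebpb*+/+ against 0.991 and 2.02 in *cebpb*-/-.

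Over the 19 cytosolic genes tested the median log2 fold change was -0.30 scaled and 0.25 as deposited, with 8 and 11 genes above 0. Over all genes tested it was -0.03 and 0.42. Genes that averaged 50 scaled TPM or more had a median of -0.30 scaled and 0.24 as deposited, cytosolic ribosomal protein genes -1.05 and -0.50, and initiation and elongation factor genes -0.58 and -0.12. On the scaled values 3 cytosolic genes were higher and 7 lower in both mutant libraries, against 21.1% and 23.6% of all genes tested. As deposited the tally was reversed, with 7 higher and 3 lower, against 30.9% and 15.4% of the same genes.

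Mitochondrial synthetase transcripts were scarce in the *cebpb* table, with summed TPM of 23.2 and 24.3 in *cebpb*+/+ against 25.9 and 44.6 in *cebpb*-/-. The ratio of the cytosolic to the mitochondrial sum was 31.9 and 29.2 against 27.7 and 20.7. Only *sars2* and *yars2* exceeded 10 TPM in any library. *Sars2* was at 10.5 and 10.8 TPM in *cebpb*+/+ against 0.101 and 22.8 TPM in *cebpb*-/-, so that its mutant libraries lay on either side of the wild-type ones, with a scaled log2 fold change of -1.51 (SE 1.47, limma adjusted p = 0.638). *Yars2* was at 1.66 and 3.04 TPM against 6.38 and 11.1 TPM, with a scaled log2 fold change of 1.08 (SE 0.89, adjusted p = 0.625). *Tars2* was at 0.452 and 0 TPM against 2.25 and 6.22 TPM, with a scaled log2 fold change of 1.70 (SE 1.03, adjusted p = 0.530). In *yars2* and *tars2* both mutant libraries exceeded both wild-type ones, as for 21.1% of all genes tested when scaled and 30.9% as deposited. *Rars2* had the opposite order on both scales, at 7.04 and 0.153 TPM against 0.107 and 0.122 TPM, as for 23.6% and 15.4%. At such levels single libraries of members, *tars2* among them, are listed at 0. *Iars2* ran from 0.208 to 4.54 TPM in *cebpb*+/+ and from 1.08 to 7.53 TPM in *cebpb*-/-, with a scaled log2 fold change of 0.36 (SE 1.27, adjusted p = 0.913). The median over the 7 genes tested was 0.36 scaled and 0.70 as deposited, 4 of them above 0 on both scales.

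The effects of the mutations were then set against each other in 1 limma fit of all 8 libraries, in which the effect in the *cebpb* table is subtracted from that in the *cebp1* table. Each mutation was profiled in its own table, so mutation and table cannot be told apart in this contrast. The wild types of the tables differed, with 87.8% and 88.1% of listed genes above 0 in *cebp1*+/+ against 46.6% and 46.3% in *cebpb*+/+. Scaling raised the *cebp1* effects and lowered the *cebpb* effects, so it moved every difference upward. The same 3 genes that rose in *cebp1*-/- differed, out of 25 members tested. Both results use the same *cebp1* libraries. The difference in log2 fold change was 3.57 for *gars* (SE 0.49, adjusted p = 0.00492), 2.55 for *dars* (SE 0.48, adjusted p = 0.0161) and 2.57 for *nars* (SE 0.58, adjusted p = 0.0340). A positive difference at this threshold was found for 6.09% of 11360 genes tested, and for 43.4% of those that averaged 50 scaled TPM or more in the *cebp1* table. *Kars* followed at 2.28 (SE 0.67, adjusted p = 0.0812).

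On the deposited scale none of these passed, at 1.97 for *gars* (limma adjusted p = 0.0644), 0.94 for *dars* (adjusted p = 0.223) and 0.97 for *nars* (adjusted p = 0.270). There *cars* passed in the opposite direction, at -3.17 (SE 0.72, adjusted p = 0.0491), a direction found for 3.53% of genes on that scale, whereas its scaled difference was -1.61 (SE 0.68, adjusted p = 0.203). Over all genes the calls numbered 106 positive and 407 negative as deposited, against 692 and 84 on the scaled values. *Gars* was the single member whose libraries separated by genotype in both tables, in opposite directions and on both scales, higher in *cebp1*-/- and lower in *cebpb*-/-. This pattern of levels was found for 2.89% of genes tested.

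**Figure D5:**
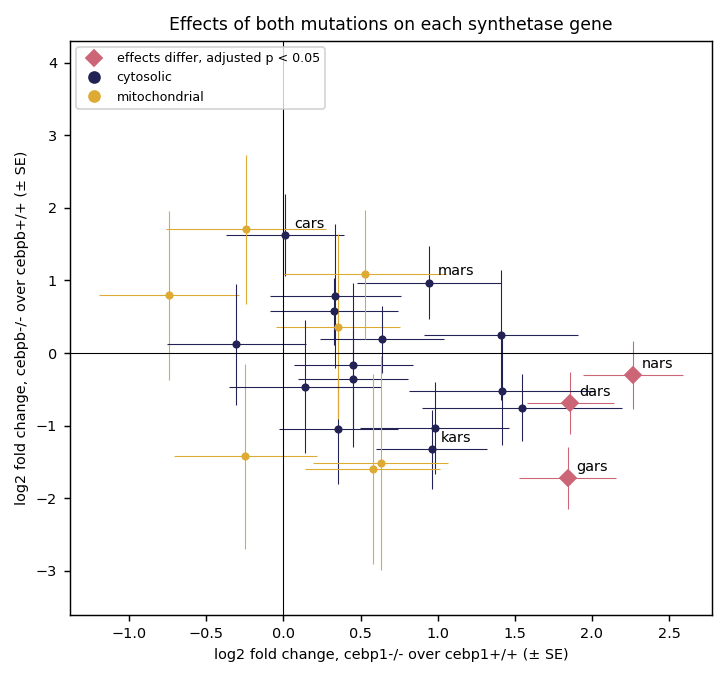
Scaled log2 fold change in *cebp1*-/- (horizontal) against that in *cebpb*-/- (vertical) for the 25 synthetase genes tested in both tables, with bars of ± SE, and red diamonds where the effects differed at an adjusted p under 0.05. *Gars* stands alone at the lower right, at 1.84 and -1.72.

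The proteins that work with the synthetases include the scaffolds of the complex, the mitochondrial amidotransferase and editing enzymes. Of 11 such partner genes listed, 10 reached the minimum level in each table, and none passed in either comparison (limma). At an unadjusted limma p under 0.05, 2 were higher and 0 lower in *cebp1*-/-, beside 9.7% and 4.91% of all genes. In *cebpb*-/- 0 were higher and 3 lower, beside 6.13% and 8.05%. Their median scaled log2 fold change was -0.13 in *cebp1*-/-, with 5 of 10 above 0, and -0.94 as deposited. In *cebpb*-/- it was -1.99, with 9 of 10 below 0, and -1.87 as deposited, beside medians of -0.03 and 0.42 over all genes tested. Of the 11 genes, 3 and 6 were listed at 0 in the *cebpb*-/- libraries, against 2 and 1 in *cebpb*+/+. In all, 50.3% and 39.3% of listed genes were above 0 in *cebpb*-/-, against 46.6% and 46.3%. The scaffold genes of the multisynthetase complex differed among themselves. *Aimp2* was at 83.1 and 54.8 TPM in *cebp1*+/+ against 84.5 and 56.4 TPM in *cebp1*-/-, whereas *eef1e1* was at 40.5 and 23.0 TPM against 10.9 and 9.07 TPM. The scaled log2 fold changes were 1.09 (SE 0.37, adjusted p = 0.235) and -0.52 (SE 0.41, adjusted p = 0.613).

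Among partners in the *cebpb* table, *aarsd1*, which encodes an editing protein that clears mischarged alanyl-tRNA, was at 10.9 and 20.2 TPM in *cebpb*+/+ and listed at 0 in both *cebpb*-/- libraries (limma adjusted p = 0.182). *Qrsl1*, which encodes a subunit of the amidotransferase that makes mitochondrial glutaminyl-tRNA, was at 10.3 and 11.8 TPM against 1.67 and 0 TPM. Its scaled log2 fold change was -3.19 (SE 0.94, limma adjusted p = 0.250). *Aarsd1* and *qrsl1* were lower in both mutant libraries, as were 15.4% of all genes tested as deposited and 23.6% when scaled. The other listed subunit, *gatb*, overlapped as deposited, at 1.36 and 1.30 TPM against 1.66 and 0 TPM. *Pars2*, the mitochondrial prolyl enzyme, lies outside the symbol rule and was listed at 0 in all 8 libraries.

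Of 11 genes of the Atf4 pathway none passed in either comparison (limma, 6 higher and 0 lower at an unadjusted p under 0.05 in *cebp1*-/-, beside 9.7% and 4.91% of all genes, and 1 and 1 in *cebpb*-/-, beside 6.13% and 8.05%). Their median log2 fold change in *cebp1*-/- was 1.01 scaled, with 8 above 0, and -0.05 as deposited, with 6 below 0. In *cebpb*-/- it was -0.02 scaled and 0.42 as deposited. In the *cebp1* table *chac1*, a glutathione-degrading enzyme, was at 44.9 and 67.4 TPM in *cebp1*+/+ against 104 and 118 TPM in *cebp1*-/-, with a scaled log2 fold change of 2.05 (SE 0.38, adjusted p = 0.0510). *Atf4a* was at 175 and 140 TPM against 241 and 198 TPM, with a scaled log2 fold change of 1.54 (SE 0.30, adjusted p = 0.0574). Both thus had non-overlapping groups in the same order as *gars*, as did 5.11% of all genes tested as deposited. As deposited, *ddit3*, *trib3* and *sesn2* had the opposite order, found for 61% of genes. The scaled log2 fold changes of these genes were 0.19, -0.20 and -0.43. *Asns*, the asparagine synthetase that makes the amino acid *nars* uses, was at 8.57 and 7.21 TPM against 3.73 and 3.71 TPM, the opposite order as deposited, with a scaled log2 fold change of -0.01 (SE 0.45, adjusted p = 0.996). In the *cebpb* table as deposited, *chac1* was lower in both mutant libraries, at 708 and 836 against 477 and 543 TPM, as were 15.4% of genes. *Atf4a* was higher in both, at 405 and 331 against 1297 and 1037 TPM, as were 30.9% of genes. *Atf4b*, *ddit3* (400 and 382 against 859 and 645 TPM) and *trib3* (214 and 287 against 558 and 406 TPM) were higher too. The scaled log2 fold changes were -1.15 for *chac1* (SE 0.24, limma adjusted p = 0.173) and 1.11 for *atf4a* (SE 0.24, adjusted p = 0.182).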

How the data were processed

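Reads were aligned with STAR to GRCz11 and counted with featureCounts, and the authors deposited TPM per gene in 1 table for each mutation. The gene lengths and annotation behind the TPM are not given in the sources used here. The authors' own comparison used DESeq2 on counts, which were not used here. All 8 sample columns were used. Within each table TPM were scaled by the median of ratios over genes above 0 in each library that averaged 1 TPM or more (factors 0.658 to 1.64). Genes that averaged 1 scaled TPM or more were tested by limma 3.58.1 in R 4.3.3 (lmFit, eBayes with trend, 2-sided) on log2(scaled TPM + 1), with Benjamini-Hochberg adjustment over all genes tested and a threshold of 0.05. The difference of the effects used all 8 libraries in 4 groups. The fit was tested on simulated data, and figures were drawn with matplotlib.

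The replicates are pools of larvae, so p-values measure the spread between pools. Same-numbered libraries did not deviate together over all genes tested (correlation of their deviations 0.0081 and -0.019). These values do not decide whether the numbers mark pairs, and the main fits pair no samples. The members, the lists of partners, Atf4-pathway genes and markers, the limit of 50 scaled TPM and the comparisons were chosen with earlier results of these data known. Values are given in full for members with a Cebp1 peak, members past the test, and, per comparison, the 5 most abundant cytosolic and 3 most abundant mitochondrial members and the 3 with the smallest p in each direction. *Mars* and *farsb* in the *cebpb* comparison and *nars2* and *fars2* in the *cebp1* comparison are named by the last part. *Aimp1* took the place of *aimp1a* and *aimp1b*, the symbols first listed. Peak membership was taken by gene name from the study's supplementary peak list. A mitochondrial member is counted but not reported here by itself. A search of promoters for C/EBP motifs was planned and was not run. The alternatives were other pseudocounts (0.1 and 5), minimum levels (none and 5), scalings (none, or over genes averaging 50 TPM or more), no trend, a fit of all groups, a replicate block and leaving out each library. In counts of reversals, only values past the test were considered.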

Additional observations from a re-analysis of the deposited data

Results flagged for a closer look

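For 3 members the effect in the *cebp1* table differed from that in the *cebpb* table by the limma contrast across all 8 libraries. Mutation and table cannot be told apart in this contrast, and the 3 members are those that rose in the same *cebp1* libraries. The difference in scaled log2 fold change was 3.57 for *gars*, 2.57 for *nars* and 2.55 for *dars*, all with the *cebp1* effect above the *cebpb* effect, as for 6.09% of all genes tested and 43.4% of those that averaged 50 scaled TPM or more in the *cebp1* table. None of the 3 passed on TPM as deposited (limma adjusted p = 0.0644, 0.270 and 0.223). Of the 3, only for *gars* did the libraries also separate by genotype in each table without scaling. No group held enough libraries for a check of single libraries that stand apart.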

How the results depend on the processing

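The 3 members that rose in *cebp1*-/- numbered 2 with a pseudocount of 0.1, where *gars* was lost (limma adjusted p = 0.0526), and 3 with a pseudocount of 5, a minimum of 5 scaled TPM or a replicate block. They numbered 0 without a minimum level, on TPM as deposited, with scaling on genes of at least 50 TPM, without the trend, in the fit of all 4 groups, and with any library left out (0 to 0). Over all genes, 323 rose in *cebp1*-/-, against 194 with a pseudocount of 0.1, 680 with a minimum of 5 scaled TPM, 11 with scaling on genes of at least 50 TPM, and 0 without a minimum level, without the trend or with any library left out. Under the block 12 genes rose and 17 fell in *cebpb*-/- against 0 in the fit without it, with no synthetase among them. In that comparison 1 member, *gars*, fell (adjusted p = 0.0311) in the fit of all 4 groups, in which 3.68% of all genes fell. The cytosolic median log2 fold change in *cebp1*-/- was 0.67 with a pseudocount of 5, -0.25 as deposited, -0.33 with scaling on genes of at least 50 TPM and 0.56 to 0.75 with a library left out. The mitochondrial median was -0.92 as deposited, -0.98 with that scaling and -0.020 to 0.28 with a library left out. In *cebpb*-/- the cytosolic median was 0.25 as deposited, -0.063 with that scaling and -0.68 to -0.056 with a library left out. The mitochondrial median was -1.51 with a minimum of 5 scaled TPM and -0.36 to 0.98 with a library left out.

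The 3 members whose effects differed numbered 1 without a minimum level (*gars*), on TPM as deposited (*cars*) and with scaling on genes of at least 50 TPM (*gars*), and 0 without the trend. With a library left out they numbered 1 to 5. *Gars* alone passed without any 1 of the *cebp1* libraries or either *cebpb*+/+ library, and *kars* (2.89) and *sars2* (4.20) joined without *cebpb*-/- replicate 2. The leave-one-out fits of the difference, a separate spread for each table and the count among abundant genes were chosen after seeing the data. The cause of these changes was not tested. With 2 libraries a group and an unknown depth, the precision of the scarce members cannot be given, and a difference that did not pass is not shown to be absent.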

Other observations

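Nuclear tRNA genes, whose products the cytosolic synthetases use, are also listed in the tables, as 61 rows. Mitochondrial tRNA genes are listed too and were not summarized here. Whether such rows measure mature tRNA was not tested. Of the 61 nuclear rows, 55 of the *cebp1* table and 1 of the *cebpb* table reached the minimum level. The median level of the 61 rows was 3.82 and 3.56 TPM in *cebp1*+/+ against 1.08 and 1.17 TPM in *cebp1*-/-. The median log2 fold change was -0.37 scaled and -1.12 as deposited, beside 0.79 and -0.25 for the cytosolic synthetases and -0.06 and -0.90 for all genes tested. None of the 55 passed the limma test, and 0 were higher and 1 lower at an unadjusted p under 0.05, beside 9.7% and 4.91% of all genes.

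Mitochondrial ribosomal protein genes, which serve the same compartment as the mitochondrial synthetases, had a median log2 fold change of 0.57 scaled and -0.44 as deposited in *cebp1*-/-, against 0.02 and -0.92 for the mitochondrial synthetases. None of the 63 tested passed, and 8 of them were higher and 0 lower at an unadjusted p under 0.05, where 9.7% and 4.91% of all genes were.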
